A study of Mus musculus with 9 samples.

Results

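The genes described here are 37 integrin and focal adhesion genes of the mouse, taken by gene name from a table of 54532 genes, and all 37 names were found. They comprise 12 alpha and 7 beta integrin subunits and 18 cytoplasmic proteins of the adhesion site. The cells were cardiosphere-derived cells (CDCs) grown from heart explants of C57BL/6 mice, in 3 groups of 3 RNA sequencing libraries each. By the study's methods the explants were pieces of epicardium from the ventricle. Primary CDCs (pECDCs in the study's own text) were untreated. iCDCs (iECDCs) were the same kind of cell after immortalization with hTERT, the catalytic subunit of human telomerase, carried by a lentivirus and selected with puromycin, and were untreated at passage 30. SB431542-treated iCDCs were passage 30 iCDCs exposed for 3 days to SB431542, a small molecule that blocks the type I receptor of TGF-β and its close relatives. The labels call the primary CDCs passage 0 by their names, whereas the study's methods give another early passage, and the same methods describe the SB431542-treated cells as an epithelial clone obtained from primary cells. iCDCs are 1 immortalized line, and the labels do not say whether the libraries of a group came from separate cultures or animals. The study's methods speak of biological replicates, but of another number per group, so the p-values measure the spread between libraries, which may be technical.

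Integrins are receptors made of 1 alpha and 1 beta subunit that bind extracellular matrix outside the cell and, through talin and kindlin, the actin cytoskeleton inside it. The alpha subunit largely sets the ligand: a collagen, a laminin, or proteins such as fibronectin and vitronectin that carry the peptide motif RGD. Talin, vinculin, alpha-actinin, filamin and tensin tie the receptor to actin, the ILK-PINCH-parvin complex links it to actin in parallel, and focal adhesion kinase, paxillin, p130Cas and zyxin carry signals from the site. TGF-β bears on the same system from both sides, since integrins that contain the alpha v subunit bind the latent form of TGF-β, and active TGF-β is a known inducer of matrix and adhesion genes in mesenchymal cells.

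Total counts ranged from 16568306 to 23951392 per library, so that 3 counts, taken as the floor of detection, correspond to 1.25e-05% to 1.81e-05% of a library and cover counting error only. The library of iCDC replicate 3 stood apart from the other iCDC libraries, with a chi-square per degree of freedom of 24.9 and 30.8 against them where those differed from each other by 4.61. SB431542-treated replicate 2 stood further apart, with 70.3 and 71.5 where the other treated libraries differed by 3.79. Levels are in FPKM (fragment counts normalised to gene length and library size). Of 8 markers of fibroblasts or mesenchymal cells, 7 had a mean of at least 1 FPKM in primary CDCs, 7 in iCDCs and 8 in treated iCDCs. The exception was Dcn, with 0.615 to 0.903 FPKM in primary CDCs and 0.390 to 0.542 FPKM in iCDCs. Dcn had 17.4, 3.43 and 18.7 FPKM in treated replicates 1, 2 and 3. In each group 4 of 6 endothelial markers were at or under the floor, with a summed level of at most 0.168 FPKM. Eng and Thy1, which encode CD105 and CD90, surface markers used for CDCs and shared with other mesenchymal cells, had 62.4 to 90.2 FPKM and 111 to 148 FPKM over the 9 libraries. Of 5 epicardial markers, 1 had a mean of at least 1 FPKM in primary CDCs, 1 in iCDCs and 3 in treated iCDCs. It was Tbx18 in the first 2 groups, joined by Tcf21 and Upk3b in treated iCDCs, all named after their values were seen. Cdkn2a and Smad7 were also named after their values were seen. Cdkn2a, a cell cycle inhibitor, had 550, 407 and 562 counts in primary CDCs, at most 1 in iCDCs and 0 in every treated library, so the treated libraries were like the iCDCs in this gene. Smad7, a target of TGF-β signalling, had 33.5 to 35.3 FPKM in iCDCs and 8.16, 14.0 and 7.49 FPKM in treated replicates 1, 2 and 3.

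The 37 genes covered a wide range of levels. In primary CDCs 18 had a mean of at least 10 FPKM, 9 had 1 to 10 FPKM and 10 were under 1 FPKM. In iCDCs these numbers were 19, 7 and 11, and in treated iCDCs 18, 7 and 12. Itgb1, the beta subunit shared by most integrins, was the most abundant in primary CDCs at 357 ± 0.876 FPKM (SD, n = 3) and in iCDCs at 424 ± 23.3 FPKM. In treated iCDCs Flna, which encodes the actin crosslinker filamin A, came first at 293 ± 61.9 FPKM and Itgb1 second at 249 ± 9.0 FPKM, and their libraries overlapped. Itga2, a collagen receptor subunit, was last in each group, with 0 to 7 counts per library, and was not tested in any comparison.

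Differences between groups were tested with edgeR's quasi-likelihood test, and a gene was called when its Benjamini-Hochberg adjusted p over all genes tested was under 0.05. Between iCDCs and primary CDCs, 36 of the 37 genes were tested and 9 were called, 4 higher and 5 lower in iCDCs. Over all 13752 genes tested the share called was 16.4%, 7.21% higher and 9.21% lower. The median log2 fold change of the 36 genes was 0.12, beside -0.00182 over all genes. Between SB431542-treated iCDCs and iCDCs, 34 were tested and 19 were called, 4 higher and 15 lower in treated cells, where the share over all 13559 genes was 30.0%, 16.0% higher and 14.0% lower. The median log2 fold change of these 34 was -0.63, beside 0.00145 over all genes. Between treated iCDCs and primary CDCs, 35 were tested and 24 were called, 8 higher and 16 lower, beside 34.8% of 14015 genes, 17.9% higher and 17.0% lower, with a median of -0.51 beside 0.00683. The libraries of the compared groups did not overlap for 21 of the 36 genes tested between iCDCs and primary CDCs, beside 39.9% of all genes tested, for 24 of the 34 tested between treated and untreated iCDCs, beside 46.5%, and for 28 of the 35 tested between treated iCDCs and primary CDCs, beside 51.5%. With total counts as library sizes, the split over all genes moved from 992 higher and 1266 lower to 673 and 1552 between iCDCs and primary CDCs, and from 2164 and 1897 to 2605 and 1426 between treated and untreated iCDCs. The 3 comparisons share libraries pairwise, so their values are given side by side only.

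**Figure D1:**
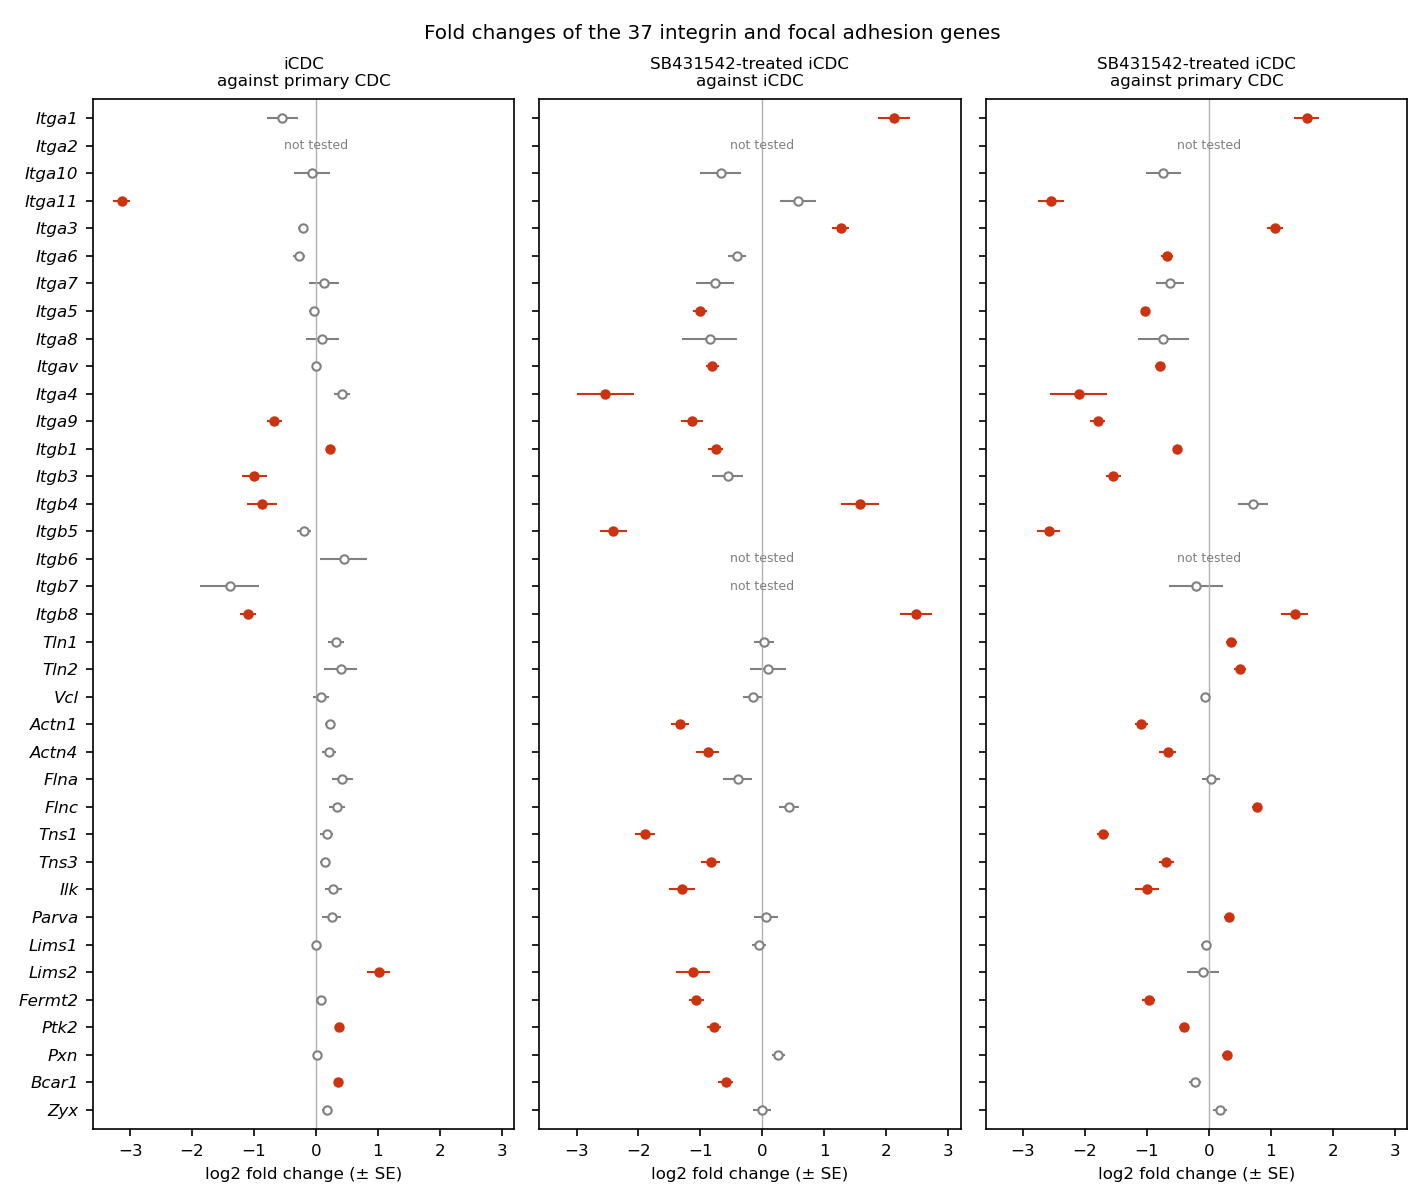
Log2 fold change of each of the 37 genes in the 3 comparisons, with bars of 1 standard error from edgeR's quasi-likelihood fit. Filled red points passed an adjusted p under 0.05, open points did not, and genes too low to test are marked; Itga11 lies farthest left among iCDCs against primary CDCs at -3.13, and Itgb5 and Itgb8 lie on opposite sides among treated iCDCs against iCDCs at -2.41 and 2.48.

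Promoters of the genes with the largest called falls and rises under SB431542, among those with a mean of at least 1 FPKM and a sequence in the RefSeq promoter table of GRCm38.p6, are shown because they differ most in response. The table held a promoter for 28 of the 37 genes, 35 windows in all. The 250 bases before each start were searched on both strands for CAGAC, a core of the element bound by SMAD proteins, GGAATG, the element bound by TEAD factors, and the CArG box bound by serum response factor, and matches are in capitals. Itgb5, a vitronectin receptor subunit, and Tns1, an actin-binding tensin, fell. Itgb8, of a latent TGF-β receptor, and Itga3, of a laminin receptor, rose.
Itgb5 (chr16:33829415-33829664, plus strand): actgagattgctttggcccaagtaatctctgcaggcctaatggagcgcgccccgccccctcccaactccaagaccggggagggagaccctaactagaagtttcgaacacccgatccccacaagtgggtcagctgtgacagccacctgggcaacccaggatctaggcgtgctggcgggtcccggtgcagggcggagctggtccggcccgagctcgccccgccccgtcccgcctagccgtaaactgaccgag
Tns1 (chr1:74124549-74124798, minus strand): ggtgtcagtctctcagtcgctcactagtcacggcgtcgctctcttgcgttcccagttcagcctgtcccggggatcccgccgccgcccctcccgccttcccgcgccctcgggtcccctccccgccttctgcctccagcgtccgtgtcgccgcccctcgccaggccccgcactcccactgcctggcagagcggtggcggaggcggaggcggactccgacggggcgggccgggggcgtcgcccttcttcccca
Itgb8 (chr12:119238277-119238526, minus strand): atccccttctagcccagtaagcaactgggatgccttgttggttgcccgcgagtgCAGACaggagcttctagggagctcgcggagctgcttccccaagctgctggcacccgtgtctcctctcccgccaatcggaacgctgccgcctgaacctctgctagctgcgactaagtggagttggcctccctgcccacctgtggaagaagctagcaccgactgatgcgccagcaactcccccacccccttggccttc
Itga3 (chr11:95076715-95076964, minus strand): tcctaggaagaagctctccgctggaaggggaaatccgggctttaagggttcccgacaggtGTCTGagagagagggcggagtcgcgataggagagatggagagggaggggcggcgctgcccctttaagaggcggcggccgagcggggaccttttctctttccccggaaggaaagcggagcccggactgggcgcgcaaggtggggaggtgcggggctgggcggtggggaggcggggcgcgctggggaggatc
The windows of Itgb5 and Tns1 held none of the 3 motifs, and those of Itgb8 and Itga3 held CAGAC once each, in Itga3 on the opposite strand. The table has a further start of Itga3, whose window held none of the 3 motifs, and the window shown is that of the start nearest to the gene's end in the deposited table. Among all 32851 windows of this length in the table, 42.2% held CAGAC, 12.6% held GGAATG and 1.47% held a CArG box. Of the 35 windows of the adhesion genes, 13 held CAGAC, 6 held GGAATG and 3 held a CArG box, the last in Fermt2, Itgb6 and Vcl. These matches describe letters in the windows only.

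Of the 4 collagen-binding alpha subunits, Itga11 differed between primary and immortalized cells. It encodes alpha 11, a receptor for fibrillar collagen found on mesenchymal cells, and lies at chr9:62677826-62783982 on the plus strand (GRCm38). Itga11 had 3.46, 3.64 and 3.25 FPKM in primary CDC replicates 1, 2 and 3, 0.338, 0.427 and 0.431 FPKM in iCDCs and 0.80, 0.445 and 0.529 FPKM in treated iCDCs. Every primary library lay above every library of the other groups. The level in iCDCs was 8.78 times lower than in primary CDCs (log2 fold change -3.13 ± 0.14, SE, adjusted p = 1.99e-06, edgeR), and that in treated iCDCs was 5.82 times lower than in primary CDCs (-2.54 ± 0.21, adjusted p = 0.000418). Between treated and untreated iCDCs the log2 fold change of Itga11 was 0.58 ± 0.29 (adjusted p = 0.157). It was called there in 2 of 17 alternatives. Without treated replicate 2 it was 0.75 (adjusted p = 0.0441).

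Itga1, which encodes the collagen receptor subunit alpha 1, was low throughout at 0.0560 to 0.372 FPKM. It rose 4.37-fold in treated iCDCs against iCDCs (log2 2.13 ± 0.26, adjusted p = 0.00160), with 107, 107 and 125 counts in treated and 35, 22 and 16 counts in untreated iCDCs. The gene Pelo lies on the same strand within Itga1 and overlaps it by 1832 bases, with 106 to 229 counts per library, so how the counting split the reads bears on Itga1. Itga10, another collagen receptor subunit, had 0.154 to 0.436 FPKM and did not pass the test in any comparison.

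Of the 3 laminin-binding alpha subunits, Itga3 rose under SB431542. Itga3, which encodes alpha 3 of the epithelial laminin receptor alpha 3 beta 1, had 4.20, 3.84 and 3.93 FPKM in primary CDCs, 3.47, 3.55 and 3.48 FPKM in iCDCs and 9.52, 6.95 and 8.50 FPKM in treated iCDCs. All treated libraries lay above all others. Itga3 rose 2.40-fold against iCDCs (log2 1.26 ± 0.14, adjusted p = 0.00110) and 2.10-fold against primary CDCs (1.07 ± 0.13, adjusted p = 0.00153).

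Itga6, alpha 6 of the laminin receptors alpha 6 beta 1 and alpha 6 beta 4, had 2.11, 2.13 and 2.15 FPKM in primary CDCs, 1.88, 1.87 and 1.55 FPKM in iCDCs and 1.31, 1.46 and 1.21 FPKM in treated iCDCs. It fell by 0.67 on the log2 scale between primary and treated cells (SE 0.10, adjusted p = 0.00306), while its log2 fold change of -0.40 ± 0.15 against iCDCs had an adjusted p of 0.0688. The latter was called in 4 of 17 alternatives. Without treated replicate 2 it was -0.48 (adjusted p = 0.0210). Itga7, best known as the laminin receptor of muscle, had 0.275 to 0.782 FPKM and passed in no comparison.

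The RGD-binding subunits Itga5 and Itgav were the most abundant alpha subunits in each group. Itga5 encodes alpha 5 of the fibronectin receptor alpha 5 beta 1 and had 46.2, 47.2 and 49.0 FPKM in primary CDCs, 44.2, 44.4 and 51.6 FPKM in iCDCs and 23.8, 23.3 and 22.1 FPKM in treated iCDCs. Primary and immortalized libraries overlapped, with a log2 fold change of -0.04 ± 0.07 (adjusted p = 0.779), and treated libraries lay below both. Itga5 was 2.01 times lower in treated iCDCs than in iCDCs (log2 -1.01 ± 0.11, adjusted p = 0.00110). Itgav encodes alpha v, which pairs with several beta subunits and binds vitronectin and latent TGF-β. It had 31.5, 29.9 and 28.6 FPKM in primary CDCs, 28.4, 30.5 and 32.3 FPKM in iCDCs and 17.1, 16.4 and 18.3 FPKM in treated iCDCs, a 1.75-fold lower level than in iCDCs (log2 -0.81 ± 0.11, adjusted p = 0.00218). Itga8, the nephronectin receptor subunit alpha 8, was at most 0.336 FPKM in every library and passed in no comparison.

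Itga4 and Itga9 encode related subunits that bind the cell adhesion molecule VCAM-1 and matrix proteins. Itga9 had 1.78, 1.71 and 1.53 FPKM in primary CDCs, 1.04, 0.965 and 1.18 FPKM in iCDCs and 0.467, 0.470 and 0.504 FPKM in treated iCDCs. The 3 groups did not overlap and each step was called, with a log2 fold change of -0.67 ± 0.12 from primary to immortalized cells (adjusted p = 0.00585) and -1.13 ± 0.17 from untreated to treated iCDCs (adjusted p = 0.00358). An antisense gene, Gm2415, overlaps Itga9 with 30 to 99 counts per library, and whether counting used strand is not given in the sources used here. Itga4 was below 0.52 FPKM throughout and was 5.80 times lower in treated iCDCs than in iCDCs (log2 -2.54 ± 0.46, adjusted p = 0.00659), with 7, 44 and 15 counts in treated replicates 1, 2 and 3 against 123, 119 and 102 in iCDCs. Without treated replicate 2 the log2 fold change was -3.40.

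Of the 7 beta subunits, 5 were tested between treated and untreated iCDCs, where Itgb1 and Itgb5 fell and Itgb4 and Itgb8 rose. Over all genes 30.0% were called in this comparison. Itgb1 had 357, 357 and 358 FPKM in primary CDCs, 399, 427 and 445 FPKM in iCDCs and 244, 259 and 244 FPKM in treated iCDCs, so that the 3 groups did not overlap. It was 1.69 times lower in treated iCDCs than in iCDCs (log2 -0.75 ± 0.12, adjusted p = 0.00385). The rise from primary CDCs to iCDCs was 1.17-fold (log2 0.23 ± 0.07, adjusted p = 0.0433), and this call was lost without any 1 of the 3 primary libraries or without iCDC replicate 2 (adjusted p = 0.0941 to 0.172) with the replicate block (adjusted p = 0.0921), with all 9 libraries in the fit (adjusted p = 0.174) and with total counts as library sizes (adjusted p = 0.0592).

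Itgb5 encodes beta 5, the partner of alpha v in a vitronectin receptor, and was the second most abundant beta subunit in each group. It had 83.8, 85.1 and 85.8 FPKM in primary CDCs, 68.0, 66.7 and 91.2 FPKM in iCDCs and 12.1, 18.7 and 11.4 FPKM in treated iCDCs. The treated libraries lay far below the rest, 5.30 times lower than iCDCs (log2 -2.41 ± 0.22, adjusted p = 0.000622) and 5.99 times lower than primary CDCs (-2.58 ± 0.19, adjusted p = 0.000245). Between iCDCs and primary CDCs the libraries overlapped through iCDC replicate 3, and the log2 fold change was -0.19 ± 0.11 (adjusted p = 0.282). Without iCDC replicate 3 it was -0.34 and was called (adjusted p = 7.35e-06).

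Itgb8 encodes beta 8, another partner of alpha v, known for binding latent TGF-β and promoting its activation. It had 1.84, 1.77 and 1.78 FPKM in primary CDCs, 0.963, 0.886 and 0.677 FPKM in iCDCs and 5.47, 3.05 and 5.49 FPKM in treated iCDCs. The 3 groups did not overlap, with iCDCs lowest and treated iCDCs highest. Itgb8 was 2.14 times lower in iCDCs than in primary CDCs (log2 -1.10 ± 0.13, adjusted p = 0.000666) and rose 5.57-fold in treated iCDCs against iCDCs (log2 2.48 ± 0.26, adjusted p = 0.000984). The ratio of Itgb5 to Itgb8 FPKM was 45.5 to 48.2 in primary CDCs, 70.6 to 135 in iCDCs, and 2.21, 6.15 and 2.08 in treated replicates 1, 2 and 3.

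Itgb3, the beta 3 subunit of a vitronectin receptor, had 6.70, 6.84 and 6.18 FPKM in primary CDCs, 3.71, 4.14 and 2.08 FPKM in iCDCs and 2.43, 1.89 and 2.40 FPKM in treated iCDCs. Primary libraries lay above the rest, and iCDCs and treated iCDCs overlapped through iCDC replicate 3. Itgb3 was 1.99 times lower in iCDCs than in primary CDCs (log2 -0.99 ± 0.20, adjusted p = 0.0100), and its log2 fold change between treated and untreated iCDCs was -0.56 ± 0.25 (adjusted p = 0.125). Without iCDC replicate 3 the latter was -0.82 and was called (adjusted p = 0.0164).

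The remaining beta subunits were scarce. Itgb4, the partner of alpha 6 in hemidesmosomes, had 0.0928 to 0.455 FPKM and 10 to 56 counts per library. It rose 2.98-fold in treated iCDCs against iCDCs (log2 1.57 ± 0.31, adjusted p = 0.00899), and its fall of 1.82-fold from primary CDCs to iCDCs (adjusted p = 0.0413) was called in 4 of 16 alternatives and was lost when any 1 of the 6 libraries was left out (adjusted p = 0.0593 to 0.139). Itgb6, of the latent TGF-β receptor alpha v beta 6, had 1 to 18 counts, and Itgb7, a leukocyte subunit, had 1 to 29. Neither passed the filter on low counts between treated and untreated iCDCs. Without treated replicate 2, Itgb6 passed the filter and was called there. It had 1 and 2 counts in treated replicates 1 and 3, and 16, 8 and 18 in iCDCs.

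**Figure D2:**
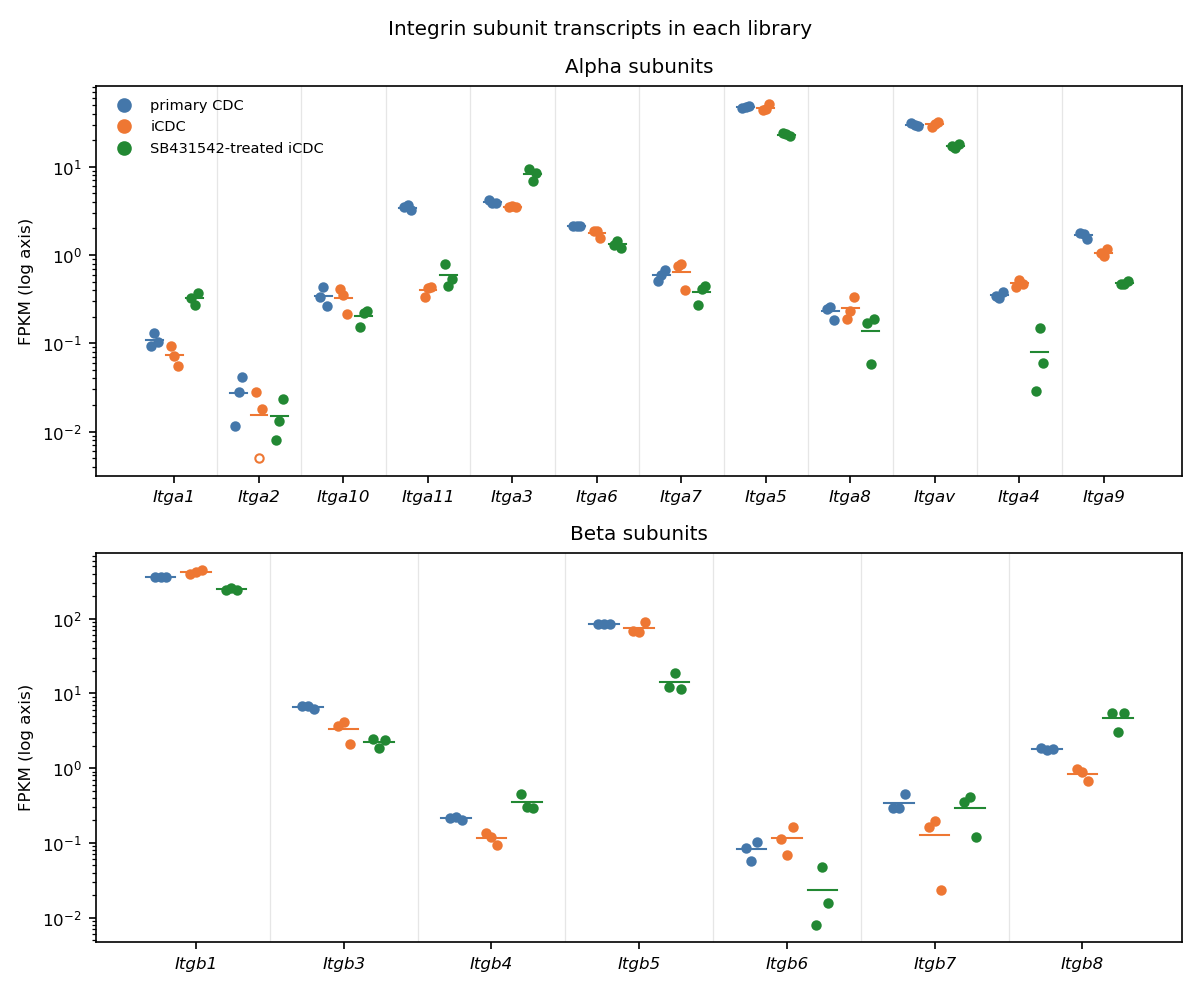
FPKM of the 12 alpha and 7 beta subunits in each of the 9 libraries on a log axis, with a line at each group mean and an open circle at the foot of the axis for the 1 value of 0 (Itga2). Itgb5 drops from 66.7 to 91.2 FPKM in iCDCs to 11.4 to 18.7 FPKM in treated iCDCs while Itgb8 climbs from 0.677 to 0.963 FPKM to 3.05 to 5.49 FPKM.

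The make-up of the subunit pool differed between the groups. The summed alpha-subunit level was 90.4 ± 0.335 FPKM in primary CDCs, 85.7 ± 5.64 FPKM in iCDCs and 52.2 ± 1.93 FPKM in treated iCDCs (SD, n = 3). The summed beta-subunit level was 451 ± 1.70, 503 ± 33.9 and 271 ± 11.4 FPKM in the same order. Itga5 held 52.5% ± 1.76 of the alpha sum in primary CDCs, 54.5% ± 1.51 in iCDCs and 44.3% ± 2.13 in treated iCDCs, and Itgav held 33.2% ± 1.49, 35.5% ± 0.817 and 33.1% ± 1.60. The share of Itga3 was 4.41% ± 0.193 in primary CDCs, 4.09% ± 0.276 in iCDCs and 15.9% ± 1.90 in treated iCDCs. In order of level Itga5, Itgav and Itga3 held the leading places in every group, and neighbours in this order did not overlap between libraries.

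On the beta side Itgb1 held 79.2% ± 0.114 in primary CDCs, 84.2% ± 1.53 in iCDCs and 92.0% ± 0.572 in treated iCDCs. The share of Itgb5 was 18.8% ± 0.155, 14.9% ± 1.81 and 5.17% ± 1.25. Next came Itgb3 and then Itgb8 in primary CDCs and iCDCs, whereas Itgb8 lay above Itgb3 in treated iCDCs, with no overlap between their libraries in any group. Shares of counts not divided by gene length put Itgav before Itga5 in each group, at 49.0% to 52.6% against 30.2% to 37.2%.

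**Figure D3:**
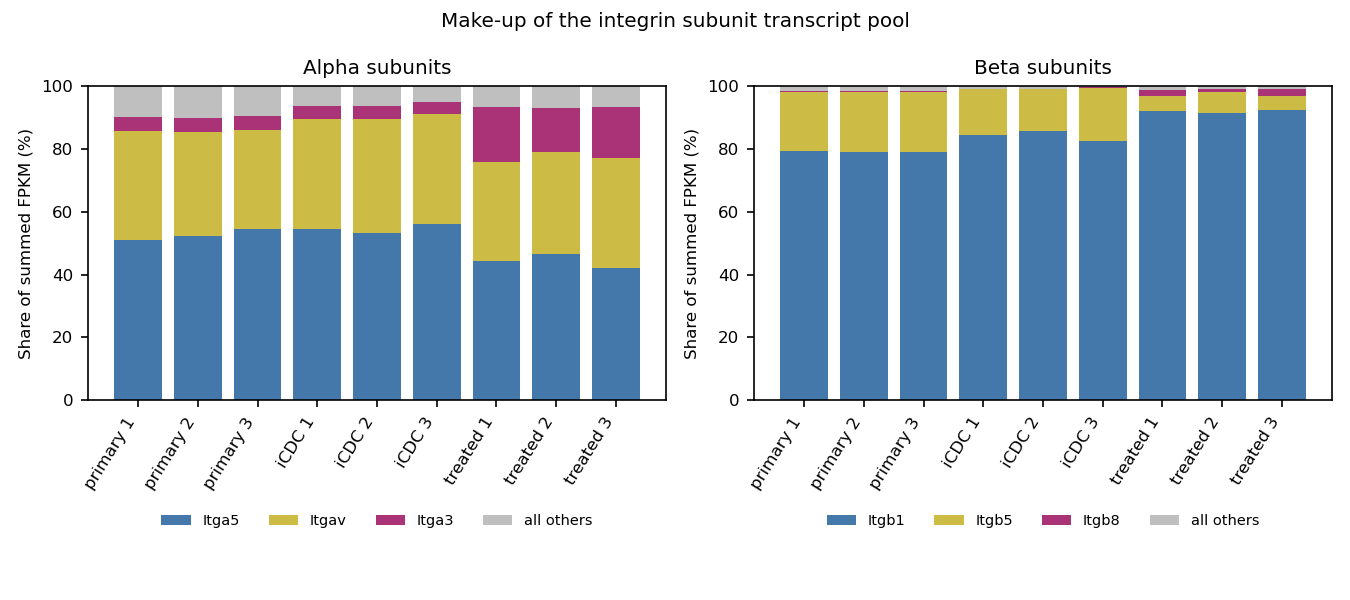
Share of the summed alpha-subunit FPKM (left) and beta-subunit FPKM (right) held by the named subunits in each library, in percent, as stacked bars. Itga3 widens to between 13.9% and 17.6% and Itgb5 narrows to between 4.33% and 6.6% in the treated libraries.

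Of 9 actin linkers, Actn1, Actn4, Tns1 and Tns3 fell under SB431542, beside 14.0% of all genes, and the other 5 did not pass the test. Between iCDCs and primary CDCs all 9 had a positive log2 fold change, with adjusted p of 0.0951 to 0.714. Without iCDC replicate 3, those of Tln2 and Vcl were -0.06 and -0.11. Actn1 encodes alpha-actinin 1, a crosslinker of actin filaments, and had 199, 196 and 192 FPKM in primary CDCs, 210, 225 and 255 FPKM in iCDCs and 88.6, 104 and 80.7 FPKM in treated iCDCs. Actn1 was 2.5 times lower in treated than in untreated iCDCs (log2 -1.32 ± 0.14, adjusted p = 0.00112). Actn4, alpha-actinin 4, had 214, 213 and 207 FPKM in primary CDCs, 207, 236 and 295 FPKM in iCDCs and 123, 161 and 113 FPKM in treated iCDCs. It was 1.84 times lower after treatment (log2 -0.88 ± 0.19, adjusted p = 0.0111), a call that was lost without treated replicate 1 (adjusted p = 0.0531).

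Tns1 and Tns3 encode tensins, which bind integrin tails and actin. Tns1 had 55.4, 55.5 and 54.1 FPKM in primary CDCs, 53.2, 61.0 and 73.4 FPKM in iCDCs and 18.7, 15.1 and 16.2 FPKM in treated iCDCs. It was 3.72 times lower in treated iCDCs than in iCDCs (log2 -1.89 ± 0.16, adjusted p = 0.000468) and 3.27 times lower than in primary CDCs (-1.71 ± 0.10, adjusted p = 0.000122). Tns3 had 31.7, 31.2 and 29.9 FPKM in primary CDCs, 32.0, 34.2 and 37.3 FPKM in iCDCs and 17.4, 23.1 and 16.9 FPKM in treated iCDCs, 1.79 times lower than in iCDCs (log2 -0.84 ± 0.15, adjusted p = 0.00586).

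Talins, vinculin and filamins were the linkers that did not pass between treated and untreated iCDCs. Tln1 encodes talin 1, which activates integrins and ties them to actin, and had 76.4, 75.4 and 70.5 FPKM in primary CDCs, 79.1, 87.1 and 115 FPKM in iCDCs and 93.5, 105 and 86.4 FPKM in treated iCDCs. Its log2 fold change between treated and untreated iCDCs was 0.03 ± 0.16 (adjusted p = 0.90), and against primary CDCs the treated level was 1.29 times higher (log2 0.36 ± 0.09, adjusted p = 0.0222), a call lost without any 1 primary library or treated replicate 1 (adjusted p = 0.0567 to 0.109) and with all 9 libraries in the fit (adjusted p = 0.0735). Tln1 overlaps Creb3 by 360 bases. Tln2, talin 2, had 2.56, 2.76 and 2.74 FPKM in primary CDCs, 2.34, 2.87 and 5.58 FPKM in iCDCs and 3.77, 4.26 and 3.30 FPKM in treated iCDCs, with treated libraries above primary ones (log2 0.50 ± 0.10, adjusted p = 0.00898, which was 0.0531 without primary replicate 1 and 0.167 with all 9 libraries in the fit).

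Vcl, which encodes vinculin, the protein that strengthens the talin-actin bond, had 31.9 to 34.8 FPKM in primary CDCs, 29.8 to 45.3 FPKM in iCDCs and 30.8 to 33.6 FPKM in treated iCDCs, and the groups overlapped in every comparison. Ap3m1 overlaps Vcl by 2235 bases on the opposite strand and had 1122 to 2160 counts per library. Flna had 296, 287 and 277 FPKM in primary CDCs, 305, 348 and 517 FPKM in iCDCs and 267, 363 and 248 FPKM in treated iCDCs. Its log2 fold change was 0.43 ± 0.17 between iCDCs and primary CDCs (adjusted p = 0.114) and -0.40 ± 0.23 between treated and untreated iCDCs (adjusted p = 0.219). Flnc, filamin C, known from muscle, had 46.5, 46.4 and 42.7 FPKM in primary CDCs, 48.1, 53.4 and 71.4 FPKM in iCDCs and 80.7, 76.9 and 73.3 FPKM in treated iCDCs. Every treated library lay above every library of both other groups. Flnc was 1.71 times above primary CDCs (log2 0.78 ± 0.08, adjusted p = 0.000922), and its log2 fold change against iCDCs was 0.43 ± 0.16 (adjusted p = 0.0747). Against iCDCs, Flnc was called without iCDC replicate 3 (adjusted p = 0.0186) and without treated replicate 2 (adjusted p = 0.0452).

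Of the 5 genes of the ILK-PINCH-parvin complex and kindlin, 3 fell under SB431542, beside 14.0% of all genes. These were Fermt2, Lims2 and Ilk, while Lims1 and Parva did not pass the test. Fermt2 encodes kindlin-2, which activates integrins together with talin, and had 48.9, 48.5 and 47.7 FPKM in primary CDCs, 50.1, 52.9 and 52.3 FPKM in iCDCs and 21.8, 28.2 and 23.6 FPKM in treated iCDCs. It was 2.10 times lower in treated iCDCs than in iCDCs (log2 -1.07 ± 0.12, adjusted p = 0.00129), with every treated library below every other. Lims2 encodes PINCH-2 and had 0.637, 0.575 and 0.735 FPKM in primary CDCs, 1.3, 1.21 and 1.49 FPKM in iCDCs and 0.413, 0.743 and 0.654 FPKM in treated iCDCs. It rose 2.02-fold from primary CDCs to iCDCs (log2 1.01 ± 0.18, adjusted p = 0.00666) and was 2.17 times lower after treatment (log2 -1.12 ± 0.27, adjusted p = 0.0181), at levels that overlapped those of primary CDCs. The latter call was lost without any 1 of the iCDC libraries or treated replicates 1 or 3 (adjusted p = 0.0501 to 0.0702).

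Lims1, which encodes PINCH-1 and was far more abundant than Lims2, had 30.3 to 38.0 FPKM over all 9 libraries, with log2 fold changes of -0.00 ± 0.07, -0.05 ± 0.11 and -0.04 ± 0.09 in the 3 comparisons. Parva encodes alpha-parvin, the actin-binding member, and had 31.4, 31.0 and 31.0 FPKM in primary CDCs, 29.8, 33.0 and 49.6 FPKM in iCDCs and 40.1, 40.6 and 35.3 FPKM in treated iCDCs. It passed between treated iCDCs and primary CDCs (log2 0.32 ± 0.08, adjusted p = 0.0195), and this call was lost without any 1 primary library or treated replicate 1 (adjusted p = 0.0619 to 0.0964) with the replicate block (adjusted p = 0.0581) and with all 9 libraries in the fit (adjusted p = 0.169). Ilk, integrin-linked kinase, had 2.72, 2.27 and 2.34 FPKM in primary CDCs, 2.67, 2.97 and 3.39 FPKM in iCDCs and 1.29, 1.42 and 0.928 FPKM in treated iCDCs (log2 -1.29 ± 0.21 against iCDCs, adjusted p = 0.00478). Ilk overlaps Taf10 by 3533 bases and Rrp8 by 794 bases on the opposite strand. Taf10 had 1740 to 2866 counts per library where Ilk had 46 to 183, so the level of Ilk is uncertain.

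Of the 4 signalling genes, Ptk2 and Bcar1 rose from primary CDCs to iCDCs and fell under SB431542, and Pxn and Zyx passed neither test. Over all genes 7.21% were higher in the first comparison and 14.0% lower in the second. Ptk2 encodes focal adhesion kinase and had 9.86, 9.62 and 9.98 FPKM in primary CDCs, 11.8, 13.0 and 13.8 FPKM in iCDCs and 6.79, 8.29 and 7.17 FPKM in treated iCDCs. The 3 groups did not overlap, with a log2 fold change of 0.38 ± 0.07 from primary to immortalized cells (adjusted p = 0.00675) and -0.78 ± 0.12 from untreated to treated iCDCs (adjusted p = 0.00310). Bcar1 encodes p130Cas, a scaffold phosphorylated on stretch, and had 44.6, 46.6 and 45.9 FPKM in primary CDCs, 56.4, 60.0 and 60.8 FPKM in iCDCs and 37.9, 44.1 and 34.7 FPKM in treated iCDCs. Its log2 fold changes were 0.36 ± 0.06 (adjusted p = 0.00443, and 0.0676 with all 9 libraries in the fit) and -0.59 ± 0.12 (adjusted p = 0.00977) in the same order, and the second was lost without iCDC replicate 2, treated replicate 1 or treated replicate 3 (adjusted p = 0.0501 to 0.0526).

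Pxn encodes paxillin, a scaffold of nascent adhesions, and had 10.6, 11.3 and 10.4 FPKM in primary CDCs, 10.6, 10.8 and 11.8 FPKM in iCDCs and 13.6, 12.1 and 13.6 FPKM in treated iCDCs. Treated libraries lay above all others, with a log2 fold change of 0.26 ± 0.10 against iCDCs (adjusted p = 0.0909) and 0.29 ± 0.08 against primary CDCs (adjusted p = 0.0260). The second call was lost without any 1 primary library or treated replicates 1 or 3 (adjusted p = 0.0650 to 0.112), with the replicate block (adjusted p = 0.0750) and with no filter on low counts (adjusted p = 0.0561). Zyx encodes zyxin, which is recruited to adhesions under tension, and had 93.3 to 124 FPKM over all 9 libraries, with a log2 fold change of -0.00 ± 0.14 between treated and untreated iCDCs (adjusted p = 0.990).

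**Figure D4:**
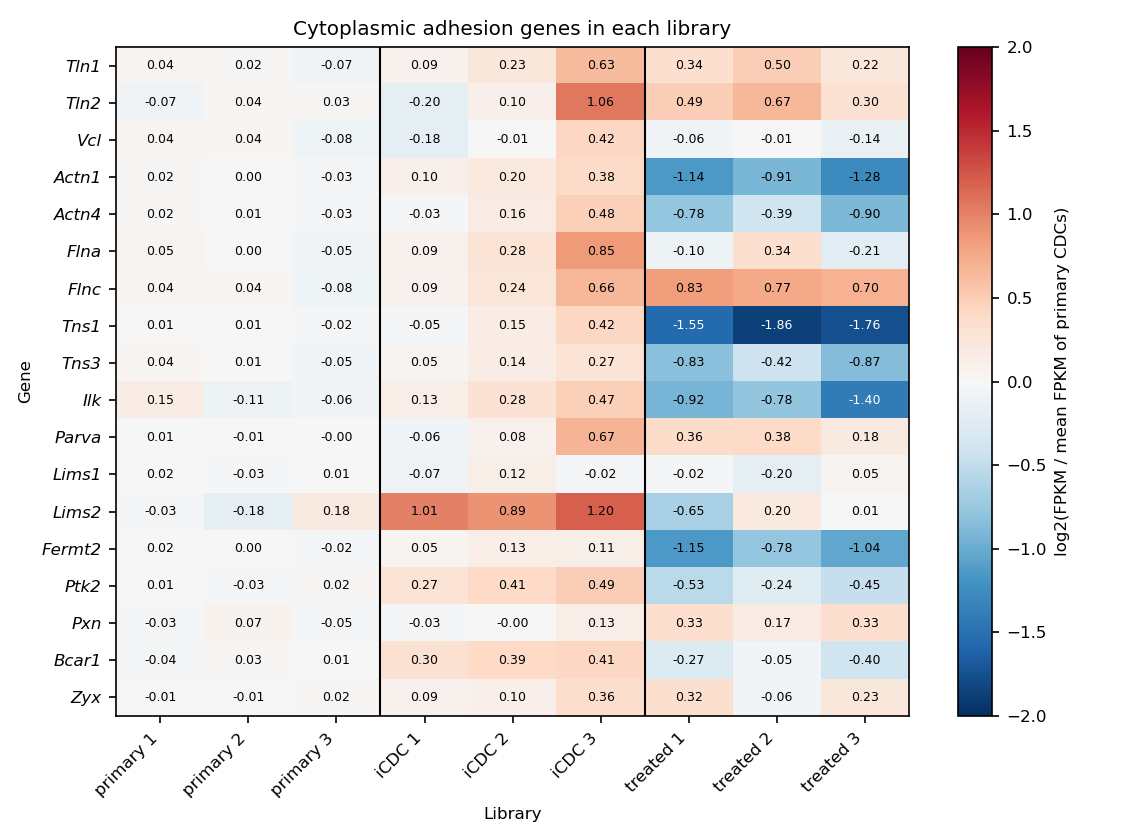
Log2 ratio of each library's FPKM to the mean FPKM of primary CDCs for the 18 cytoplasmic genes, as colour and number, with lines between the groups. Tns1, Actn1 and Fermt2 are blue in all treated libraries, Flnc is red in all of them, and iCDC replicate 3 is redder than the other iCDC libraries for most genes.

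The libraries that stood apart did so in these genes too. iCDC replicate 3 had the highest level of the iCDC libraries for 24 of the 37 genes and the lowest for 8. SB431542-treated replicate 2 lay between all iCDC libraries and both other treated libraries for 14 of the 19 genes called between treated and untreated iCDCs. On the log2 scale it covered 47.2% to 114% (median 74.0%) of the distance from the iCDC mean to the mean of the other treated libraries. Counterparts of these numbers over all genes were not computed, so they describe the adhesion genes only. Without iCDC replicate 3, 14 genes were called between iCDCs and primary CDCs, beside 31.7% of all genes tested. These held 8 of the 9 calls and added Actn1, Flna, Flnc, Itga4, Itgb5 and Tln1. Without treated replicate 2, 25 were called between treated and untreated iCDCs and 31 between treated iCDCs and primary CDCs, beside 50.2% and 64.1% of all genes. Without both libraries, 30 of 34 were called between treated and untreated iCDCs, 10 higher and 20 lower, beside 64.5% of all genes, and all 19 calls were among them.

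The sum of smooth muscle markers differed between the groups. The summed level of Acta2, Tagln, Cnn1, Myh11 and Des was 721 to 744 FPKM in primary CDCs, 817 to 1922 FPKM in iCDCs and 139 to 331 FPKM in treated iCDCs, and no marker of the list was at the floor in every library of a group. Of the 4 markers tested, 2 fell in treated iCDCs against iCDCs, beside 14.0% of all genes. Between iCDCs and primary CDCs 1 of 4 was higher, beside 7.21%. Against primary CDCs 1 of 4 was lower in treated iCDCs, beside 17.0%. Acta2, which encodes the actin of smooth muscle and myofibroblasts and made up most of the sum, had a log2 fold change of -2.56 (adjusted p = 0.00581), and iCDC replicate 3 and treated replicate 2 were the highest of their groups. Their part in the changes of the adhesion genes was not tested. In bulk RNA, fewer cells of a type and less RNA per cell cannot be told apart. Leukocyte and platelet markers summed to 11.7 to 13.5 FPKM in treated iCDCs and 5.26 to 7.71 FPKM in iCDCs. In treated iCDCs 3 of 5 tested were higher, beside 16.0% of all genes, and 5 of 10 were at or under the floor. Cd14 made up most of each sum, at 7.55 to 8.84 FPKM in treated iCDCs and 3.73 to 5.46 FPKM in iCDCs. Of the 5 tested, 1 had a negative log2 fold change, and Cd68 had a mean of 0.949 FPKM in treated iCDCs and 1.18 FPKM in iCDCs.

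Genes around the adhesion were counted by list. Of 49 other proteins of the adhesion site, 45 were tested in each comparison. Between iCDCs and primary CDCs 5 were higher and 4 lower, 9 of the 45 tested, beside 16.4% of all genes. The extremes named in this list are among called genes with a mean of at least 1 FPKM in the higher group. Here they were Parvb at a log2 fold change of 0.69 ± 0.17 and Nedd9 at -0.49 ± 0.06. The Parvb call was lost without any 1 primary library or iCDC replicate 2 and with all 9 libraries in the fit (adjusted p = 0.0746 to 0.406). Between treated and untreated iCDCs 6 were higher and 9 lower, 33.3% beside 30.0%. Pdlim1, an actin-binding PDZ-LIM protein, was the lowest at -3.27 ± 0.43 (adjusted p = 0.00196), with 17.2 ± 1.39 FPKM in iCDCs and 1.75 ± 1.3 FPKM in treated iCDCs. Without treated replicate 2 its log2 fold change was -4.10. Pdlim5 followed at -1.01 ± 0.16 (adjusted p = 0.00374). Efs, a relative of p130Cas, was the highest at 1.40 ± 0.27 (adjusted p = 0.00868), and Tns2, a further tensin, rose by 0.98 ± 0.20 (adjusted p = 0.0102), from 16.4 ± 1.66 to 32.0 ± 8.39 FPKM, where Tns1 and Tns3 fell. Against primary CDCs 10 were higher and 11 lower in treated iCDCs, 46.7% beside 34.8%. With 1 library left out in turn the calls numbered 3 to 23, 8 to 20 and 10 to 35 in the 3 comparisons, the highest without iCDC replicate 3 in the first, beside 31.7% of all genes, and without treated replicate 2 in the others, beside 50.2% and 64.1%.

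Of 17 genes of contractility downstream of adhesion, 2 were higher and 2 lower in iCDCs than in primary CDCs, 23.5% beside 16.4% of all genes. With each primary library left out in turn, edgeR called 0 of the 17 (5, 5 and 6 at an unadjusted p under 0.05). Over all genes it then called 1056 of 13981, 1036 of 14024 and 1065 of 13956. Without iCDC replicate 3 it called 9 of the 17, beside 31.7% of all genes. The calls with no library left out included Myh9, the heavy chain of non-muscle myosin IIA (log2 0.54 ± 0.12, adjusted p = 0.0180), Rhoc (0.27 ± 0.06, adjusted p = 0.0136) and Limk1 (-0.28 ± 0.06, adjusted p = 0.0143). Between treated and untreated iCDCs 1 was higher and 3 were lower. Myl9, a myosin regulatory light chain, fell from 117 ± 45.7 to 22.1 ± 11.8 FPKM (log2 -2.39 ± 0.39, adjusted p = 0.00424), and Mylk, its kinase, rose from 0.157 ± 0.0539 to 1.01 ± 0.479 FPKM (2.70 ± 0.44, adjusted p = 0.00441). The share called in this list between treated and untreated iCDCs was 23.5%, beside 30.0% of all genes, and its median log2 fold change was -0.18. Without treated replicate 2 edgeR called 8 of the 17, beside 50.2% of all genes. Without treated replicate 1 it called 2, beside 1765 of 13783 over all genes.

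Of 23 integrin ligands, 17 or 18 were tested. Between iCDCs and primary CDCs 3 rose and 6 fell, 9 of the 18 tested, beside 16.4% of all genes. Npnt, the matrix ligand of alpha 8 beta 1, rose from 20.1 ± 1.08 to 57.4 ± 15.4 FPKM (log2 1.5 ± 0.16, adjusted p = 0.000384), and Vcam1, the ligand of alpha 4 and alpha 9 integrins, fell from 58.5 ± 0.951 to 27.8 ± 4.14 FPKM (-1.09 ± 0.10, adjusted p = 0.000233). Between treated and untreated iCDCs 4 rose and 5 fell, 52.9% beside 30.0%. Lama5, the alpha 5 chain of laminins bound by alpha 3 and alpha 6 integrins, rose from 7.07 ± 0.304 to 28.1 ± 9.72 FPKM (2.01 ± 0.25, adjusted p = 0.00171), and Vcam1 rose to 64.8 ± 0.994 FPKM (1.23 ± 0.14, adjusted p = 0.00120). Col4a1, a chain of basement membrane collagen IV, fell from 185 ± 29.6 to 62.4 ± 13.9 FPKM (-1.56 ± 0.19, adjusted p = 0.00161), and Cyr61, a matricellular ligand of alpha v and alpha 6 integrins, fell from 660 ± 0.335 to 292 ± 83.5 FPKM (-1.16 ± 0.19, adjusted p = 0.00484). Against primary CDCs 5 were higher and 7 lower in treated iCDCs, 70.6% beside 34.8%. With 1 library left out in turn the calls numbered 5 to 12, 7 to 15 and 6 to 16, the highest without iCDC replicate 3, beside 31.7% of all genes, and without treated replicate 2, beside 50.2% and 64.1%.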

How the data were processed

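RNA of 9 libraries, 3 per group, was sequenced, and the deposited table holds raw counts per gene and FPKM that the authors computed from them. The submitters' notes name Bowtie2 2.0.6, TopHat2 2.0.9 and mm9, whereas the gene coordinates in the table are those of GRCm38. The counting program and its strand setting are not given in the sources used here. Each library's FPKM equalled its counts divided by gene length and by 1 constant per library, on the scale of size factors. Log2 fold changes and p-values of the authors' own comparisons are also deposited and were not used. Sources differ on the library kit, the sequencer and the number of replicates. Total counts were 16568306 to 23951392 per library.

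Counts were tested in each comparison of 2 groups with edgeR 4.0.16 (TMM factors, its filter on low counts, quasi-likelihood test) in R 4.3.3, over all genes, with Benjamini-Hochberg adjustment and a threshold of 0.05. Fold changes are from this fit and levels are deposited FPKM. Alternatives were DESeq2 1.42.0, limma 3.58.1 on log2(FPKM + 1) and log2(FPKM + 0.1), RLE, upper-quartile or total-count scaling, other filters, all 9 libraries in 1 fit, the replicate number as a block, a minimum log2 fold change of 1, and leaving out libraries. Total-count scaling and leaving out both libraries that stood apart were chosen after the data were seen. The fits were tested on simulated data. The 37 genes and all lists were chosen with earlier results of these data known. Values in every library are given for genes called in a comparison with a mean of at least 1 FPKM and for subunits with at least 10% of the summed FPKM. From each pathway list, at most 2 rises and 2 falls with a mean of at least 1 FPKM are named. Marker lists covered leukocytes and platelets, endothelium, cardiomyocytes, epithelium, smooth muscle, fibroblasts or mesenchyme, and epicardium. Summaries used pandas 2.3.3 and numpy 2.4.6 under Python 3.11.15, and plots matplotlib 3.10.9.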

Additional observations from a re-analysis of the deposited data

How the results depend on the processing

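Of the 9, 19 and 24 genes called between iCDCs and primary CDCs, treated and untreated iCDCs, and treated iCDCs and primary CDCs, 6, 16 and 18 were called under every alternative other than a minimum log2 fold change of 1. Between iCDCs and primary CDCs, a minimum log2 fold change of 1 left 3 genes (1 higher, 2 lower), beside 512 of 13752 over all genes. No filter on low counts gave 14, beside 3088 of 25105 over all genes, and leaving out 1 library gave 7 to 14. Leaving out 1 library gave 16 to 25 genes between treated and untreated iCDCs, and leaving out both libraries that stood apart gave 30. Between treated iCDCs and primary CDCs leaving out 1 library gave 18 to 31. The minimum fold change left 11 genes there (3 higher, 8 lower), beside 1330 of 14015 over all genes. Where a gene was called before or after the change, directions turned for Zyx between treated and untreated iCDCs, to 0.19 without both libraries that stood apart, and for Flna between treated iCDCs and primary CDCs, to -0.15 without treated replicate 2 (-0.15 to 0.14 with 1 library left out). Counting also genes called under neither setting, the sign turned under some alternative for 9, 6 and 4 genes in the 3 comparisons, with log2 fold changes of at most 0.40, 0.15 and 0.21 in size. Over all genes, leaving out 1 library moved the calls from 2258 to between 1036 and 4467, from 4061 to between 1707 and 7001, and from 4881 to between 2453 and 9188, and the other alternatives gave 512 to 3088, 1434 to 8951 and 1330 to 5129. Deviations of libraries with the same replicate number had correlations of -0.31 to 0.04. With 3 libraries per group, 1 of which stood apart in 2 of the groups, these cannot show whether such libraries shared a culture or batch. With the replicate block 7, 19 and 22 genes were called, beside 1791 of 13752, 3038 of 13559 and 3886 of 14015 over all genes. The calls lost were those of Itgb1 and Itgb4 between iCDCs and primary CDCs and of Parva and Pxn between treated iCDCs and primary CDCs. The cause of these changes was not tested. Genes with few counts, such as Itga2, Itgb6 and Itgb7, were poorly resolved at this depth. Without treated replicate 2, Itgb6 was called between treated iCDCs and iCDCs and between treated iCDCs and primary CDCs.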

Other observations

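Of the marker lists not described above, the 8 epithelial markers summed to 18.3 to 19.6 FPKM in primary CDCs, 28.9 to 31.4 FPKM in iCDCs and 23.0 to 38.1 FPKM in treated iCDCs, with 4, 5 and 6 of them at or under the floor. Krt19 made up nearly all of each sum, at 18.2 to 19.5, 28.8 to 31.2 and 22.8 to 37.9 FPKM in the same order. Only 1 of the 8 was tested in each comparison. The 6 cardiomyocyte markers summed to at most 1.68 FPKM in every library. The 5 epicardial markers summed to 20.2 to 21.2 FPKM in primary CDCs, 19.4 to 25.8 FPKM in iCDCs and 26.1 to 45.1 FPKM in treated iCDCs. The 8 fibroblast or mesenchymal markers summed to 2008 to 2058 FPKM, 2019 to 2387 FPKM and 1570 to 2207 FPKM in the same order.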
